A study of Homo sapiens with 3 samples.

Results

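The cytosolic ribosomal protein genes encode the protein subunits of the ribosome that translates nuclear-encoded mRNA. Members were taken by symbol from GENCODE release 44 mapped to GRCh37: protein-coding genes named RPL or RPS followed by digits, together with RPSA and RPLP0 to RPLP2, without the RPS6K kinases and without symbols in which an L and digits follow the first number. The rule gave 88 genes of 20162 protein-coding genes, and the other 20074 served as background. Of the 88 genes, 46 encode core subunits of the large ribosomal subunit and 31 encode core subunits of the small one. The remaining 11 met the symbol rule but were counted outside the core. Among them were the readthrough genes RPL17-C18orf32, RPL36A-HNRNPH2 and RPS10-NUDT3 and the paralogs RPL3L, RPL10L, RPL36AL, RPL39L and RPS27L. The Y-linked RPS4Y1 and RPS4Y2, and RPS19BP1, which is not a ribosomal protein, made up the rest.

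Peaks had been mapped by ChIP-seq, in which DNA bound by a protein is enriched with an antibody and sequenced, in SAOS2, an established human osteosarcoma cell line that is p53 null. Cells had been passaged less than 20 times and received no treatment. A RUNX2 ChIP library, made with a custom antibody, gave 9941 peaks, and a CBFB ChIP library, made with an antibody from Bethyl, gave 27246 peaks. Each antibody had 1 library in this 1 cell line, so there were no replicates, no test was possible and no p-value is given. The input DNA library was not analysed here, and the identity of the cells could not be checked from peak positions. A gene was counted as having a peak at its promoter when the midpoint of a peak was no more than 1 kb from one of the gene's annotated transcription start sites (TSSs). Beside each share stands its exact 95% interval (Clopper-Pearson), for counting error alone.

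RUNX2 is a DNA-binding transcription factor that directs bone development and recognises the core letters TGTGGT. CBFB is the common partner subunit of the RUNX family and reaches DNA through it. Ribosomal protein genes are transcribed at high levels in growing cells, and many of their transcripts start at a pyrimidine-rich TCT initiator. Several free ribosomal proteins, RPL5, RPL11 and RPL23 among them, bind MDM2 and thereby stabilise p53, a route that has no p53 to act on in SAOS2 cells.

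The sequences shown first are the RUNX core sites in the centre of the promoter peaks. Of the 29 RUNX2 peaks at ribosomal protein promoters, 5 had the letters TGTGGT, on either strand, wholly within 100 bp of the midpoint. That was 17.2%, against 21.5% of other RUNX2 promoter peaks. The 5 member peaks lay at RPL37, RPL22, RPL11, RPS29 and RPL10. They held 6 sites, which are shown with their flanks so that the core can be seen in place. All sequences are from GRCh37, 5′ to 3′ in the direction of the gene, and capitals mark the core.
RPL37, chr5:40835075-40835104, minus strand: tcccgccgtaatTGTGGTgctagagccgca
RPL37, chr5:40835255-40835284, minus strand: gtgagttgtgacTGTGGTgtttgtgaatcg
RPL22, chr1:6259608-6259637, minus strand: cgccatggctccTGTGGTtagtatggctcc
RPL11, chr1:24018218-24018247, plus strand: cgtcttcatctcTGTGGTtagcctgggaaa
RPS29, chr14:50053247-50053276, minus strand: agcactagaagcTGTGGTatggtgacgtca
RPL10, chrX:153626720-153626749, plus strand: ctttcccttcggTGTGGTgagtaagcgcag
All 6 sites read TGTGGT in the direction of transcription. The RPL22 and RPL11 sites continued with a further T after the core, which gives the longer RUNX form TGTGGTT. That form was in the centre of 6.90% (0.846% to 22.8%) of the member RUNX2 peaks, against 10.7% of other RUNX2 promoter peaks. The core at RPL10 lay 16 bp downstream of the canonical start and 27 bp from the midpoint of the peak, the closest of the 6. The RPL37 sites lay 84 and 96 bp from the midpoint, on either side of it.

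RPS3A and RPL18 had the highest RUNX2 scores of the small-subunit and large-subunit genes. The sequence upstream of their canonical starts is shown because these promoters differ in the number of RUNX cores. Each run covers the 250 bp before the start, and capitals again mark the RUNX core, which reads ACCACA on the opposite strand.
RPS3A, chr4:152020530-152020779, plus strand: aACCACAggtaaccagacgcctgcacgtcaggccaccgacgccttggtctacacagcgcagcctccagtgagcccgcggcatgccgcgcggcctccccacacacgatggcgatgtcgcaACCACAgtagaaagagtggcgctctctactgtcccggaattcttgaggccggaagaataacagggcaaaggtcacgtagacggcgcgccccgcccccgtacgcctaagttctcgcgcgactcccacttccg
RPL18, chr19:49122436-49122685, minus strand: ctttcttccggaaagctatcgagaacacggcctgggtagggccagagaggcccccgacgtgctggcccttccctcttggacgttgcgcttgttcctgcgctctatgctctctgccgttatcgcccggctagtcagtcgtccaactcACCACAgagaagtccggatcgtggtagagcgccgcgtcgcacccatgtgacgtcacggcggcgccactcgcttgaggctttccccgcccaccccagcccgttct
RPS3A held 2 cores in this window, at −249 and −131 relative to the start, and 1 match to ETS letters (CCGGAAG, either strand). The nearer core crossed the edge of the 100-bp window around the RUNX2 midpoint and lay 8 bp from the midpoint of the CBFB peak. RPL18 held 1 core, at −104, and likewise 1 match to ETS letters.

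RUNX2 peaks were present at more of the ribosomal protein promoters than of other promoters. In the RUNX2 list 28 of 88 genes had a promoter peak, or 31.8% (22.3% to 42.6%), against 11.5% of the other protein-coding genes, a 2.77-fold difference. In the CBFB list 34 of 88 genes had one, or 38.6% (28.4% to 49.6%), against 28.6%, a 1.35-fold difference. The interval for RUNX2 lay wholly above its background, and the interval for CBFB reached just below its own. The CBFB list is the longer. When only as many CBFB peaks were kept as the RUNX2 list holds, taking those with the highest scores, 11 members remained, or 12.5% against 11.3% of other genes. The larger excess was therefore on the RUNX2 side at matched list length too.

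**Figure D1:**
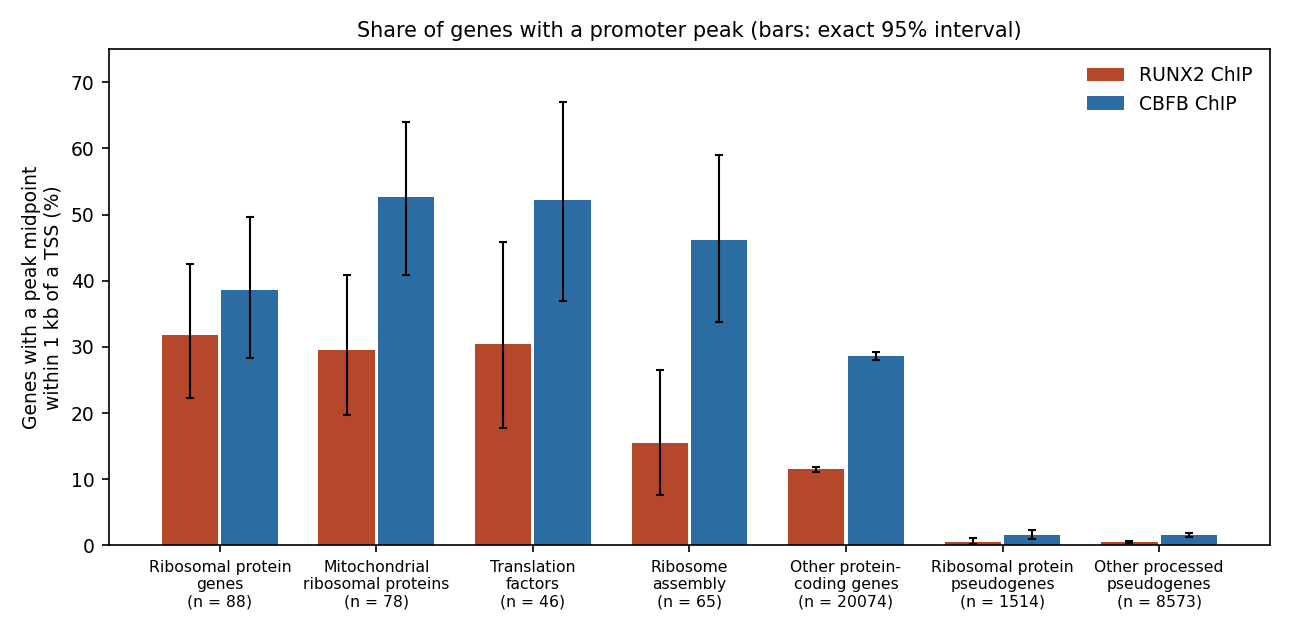
Share of genes with a peak midpoint within 1 kb of a TSS (vertical axis, %), for RUNX2 (red) and CBFB (blue) in each group of genes, with exact 95% intervals. Ribosomal protein genes had RUNX2 peaks in 31.8% and CBFB peaks in 38.6%, against 11.5% and 28.6% of other protein-coding genes, and both kinds of pseudogene stayed below 2%.

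Annotation alone can raise such a share, because ribosomal protein genes had more annotated starts, a median of 8 per gene against 5. With the canonical start only, an alternative chosen after seeing the data, RUNX2 peaks were at 30.7% of the members against 8.62% of the others. GC content within 500 bp of the gene's 5′ end was alike, at a median of 56.7% for members and 59.1% for others. Expression of the genes was not measured by these lists.

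The lists met at most of the RUNX2-marked members. Peaks of both antibodies were at 23 genes, a RUNX2 peak alone at 5, a CBFB peak alone at 11 and neither at 49. At 23 of the 28 RUNX2-marked genes, or 82.1% (63.1% to 93.9%), the RUNX2 peak shared at least 1 bp with a CBFB peak, against 92.3% of other RUNX2-marked genes. That share was lower than the background by less than its own counting error. Read from the CBFB side the order was the other way. Among the 34 members with a CBFB peak, 23 also had a RUNX2 peak, or 67.6% (49.5% to 82.6%), against 36.9% of other CBFB-marked genes.

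Higher CBFB scores went with RUNX2 peaks at all genes, so members were also compared within 5 score groups of the CBFB list, group 5 holding the highest scores. This split was chosen after seeing the data. In group 1 a RUNX2 peak was found at 3 of 4 members, against 8.78% of other genes. In group 2 it was found at 4 of 11 members against 16.0%. Group 3 had 3 of 5 members against 25.9%. These lower groups held the members with the weakest CBFB peaks, RPL10, RPL18 and RPL29 among them, and the share exceeded the background in each. Group 4 had 7 of 8 members against 48.0%, the exception being RPL15. Group 5 had 6 of 6 members against 77.4%, RPL11, RPL22, RPL36, RPL37 and RPS3A among them. The groups are small, and the intervals in groups 2, 3, 4 and 5 included the background value.

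**Figure D2:**
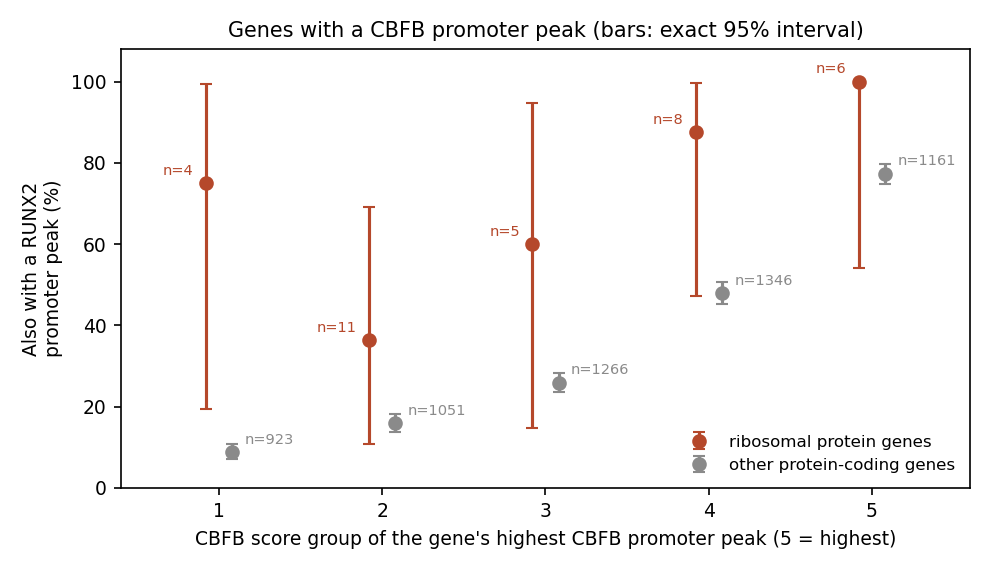
Share of genes with a CBFB promoter peak that also had a RUNX2 promoter peak (vertical axis, %), by the score group of the highest CBFB peak (horizontal axis, 1 lowest to 5 highest), with exact 95% intervals and the number of genes. Ribosomal protein genes (red) lay above other protein-coding genes (grey) in every group, from 75% against 8.78% in group 1 to 100% against 77.4% in group 5.

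The members are described next by their place in the ribosome, with the peak score in each list. The score was read as the MACS peak score, −10 times log10 of the p-value, and is given with its percentile within its own list, since score levels cannot be compared between lists. Among core large-subunit genes 17 of 46 had a RUNX2 peak, or 37% (23.2% to 52.5%), and 21 had a CBFB peak, or 45.7% (30.9% to 61.0%). Among core small-subunit genes the counts were 8 of 31, or 25.8% (11.9% to 44.6%), and 11 of 31, or 35.5% (19.2% to 54.6%). The intervals of the subunits overlapped in both lists.

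RPL18 had the highest RUNX2 score of the large-subunit genes, 240.84, at percentile 93.3 of the list. Its peak, chr19:49122229-49123234, was centred at −290 bp from the nearest start, and the TSS of SPHK2, which encodes a sphingosine kinase, also lay within 1 kb. The CBFB peak at the same promoter scored 58.22, at percentile 10.1 and the lowest of all CBFB peaks at members. RPL18 thus ranked near the top of one list and near the bottom of the other. RPL37 had a RUNX2 score of 200.5 and a CBFB score of 326.19, at percentiles 89.7 and 83.7. Its RUNX2 peak, chr5:40834486-40835884, was centred 103 bp downstream of the start, while the CBFB midpoint lay at −172 bp.

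RPL22, a subunit recurrently mutated in cancers, had 2 peaks in each list. The RUNX2 peak at the canonical promoter, chr1:6259095-6260235, scored 165.64 and the CBFB peak there 644.5, the highest CBFB score of any member, at percentile 94.4. The second pair lay at an alternative RPL22 start, within 1 kb of starts of the neighbouring gene RNF207, with a RUNX2 score of 87.92 and a CBFB score of 281.51. Both scores of the second pair were below those at the canonical promoter.

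RPL5 and RPL11 form a complex with the 5S ribosomal RNA and bind MDM2 when ribosome assembly is disturbed. RPL5 had a RUNX2 score of 156.38, at percentile 82.7, in a peak of 2043 bp, the widest RUNX2 peak of the members. This midpoint was the farthest upstream of the member peaks, at −307 bp from the nearest start and inside an intron. The CBFB peak at RPL5 scored 162.18 and was centred 23 bp downstream of a start. RPL11 had a RUNX2 score of 129.79 in the peak chr1:24017764-24018872, centred 7 bp downstream of a start in a coding exon, and a CBFB score of 285.17. It carried a RUNX core within 100 bp of the midpoint in both peaks. RPL23, which was also listed here for binding MDM2, had neither peak. Its nearest midpoint was 97842 bp away in the RUNX2 list and 15377 bp away in the CBFB list. So 2 of these 3 genes had peaks of both antibodies, a share with an interval of 9.43% to 99.2%. Peaks of both were at 23 of all 88 members and at 2122 of the 20074 other protein-coding genes.

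RPL13A, which also takes part in silencing of inflammatory mRNAs, scored 131.9 for RUNX2 and 227.02 for CBFB, with both midpoints within 16 bp of a start. RPL10A scored 117.88 and 206.95, at percentiles 71.1 and 71.2, and both midpoints lay within 9 bp of a start. These genes ranked alike in the lists. RPL36 scored 91.12 for RUNX2, at percentile 55.7, and 418.56 for CBFB, at percentile 88.6, from an intronic position also within 1 kb of starts of HSD11B1L and MICOS13. That peak is counted for RPL36 only through an alternative transcript start.

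The remaining large-subunit genes had lower RUNX2 scores. RPL14 scored 77.45 and RPL29 scored 75.03, with CBFB scores of 153.98 and 65.41. RPL35A scored 66.77, from a promoter shared with IQCG, and RPL13 scored 64.36. RPL41, which encodes the smallest ribosomal protein, scored 60.19. RPL7A scored 58.45, with MED22 starting within 1 kb, and RPL10, the X-linked subunit added late in assembly, scored 56.78, with a further RUNX2 peak of score 199.28 and a CBFB peak of score 1306.66 centred between 1 and 2 kb from a start and so not counted. RPL4 scored 51.71, at percentile 4.25, the lowest of all the members, and shared its promoter with ZWILCH. RPL35A and RPL4 had no CBFB peak at the promoter, and at RPL35A the nearest CBFB midpoint was 4097 bp away.

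Among the small-subunit genes RPS3A had the highest RUNX2 score of any member, 356.78, at percentile 97.4, in the peak chr4:152020213-152021287. The midpoint lay at −26 bp from a start, and the CBFB peak scored 534.88, at percentile 92.3. RPS3A thus ranked near the top of both lists. RPS27, a zinc-binding subunit, scored 122.72 for RUNX2 and 91.82 for CBFB, at percentiles 72.8 and 36.3, so its RUNX2 rank was the higher. RPS16 scored 66.17 and 142.67, with SUPT5H starting within 1 kb.

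RPS29 had 2 RUNX2 peaks, scoring 62.89 and 60.86, and 2 CBFB peaks, scoring 123.38 and 155.97. LRR1 also starts within 1 kb of an RPS29 start. RPS10 and the readthrough gene RPS10-NUDT3 were counted from the same peak, which scored 55.25 for RUNX2 and 86.9 for CBFB.

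Outside the core, RPL36AL, an expressed paralog of RPL36A, scored 94.29 for RUNX2 and 229.35 for CBFB from a promoter shared with MGAT2. RPS27L, a paralog of RPS27 and a p53 target gene, scored 52.07 for RUNX2, at percentile 5.07, and had no CBFB peak within 44653 bp. With RPS10-NUDT3 these made 3 of 11 genes with a RUNX2 peak and 2 of 11 with a CBFB peak. Without the 11 genes, the core subunits alone had RUNX2 peaks at 25 of 77, or 32.5%, and CBFB peaks at 32 of 77, or 41.6%.

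The 11 genes with a CBFB peak alone were RPL15, RPLP2, RPL30, RPS13, RPL31, RPL7, RPL19, RPS6, RPS25, RPSA and RPL28. RPL15 stood out with a CBFB score of 227.59, at percentile 74.3, in the peak chr3:23957940-23959422, centred 42 bp downstream of a start; NKIRAS1 also starts within 1 kb. RPLP2, a protein of the ribosomal stalk that recruits elongation factors, scored 135.5 with a midpoint at −783 bp, the farthest CBFB midpoint of the members. RPS6, the subunit phosphorylated by S6 kinases, scored 73.93, and RPSA scored 69.95. Apart from RPL15, the scores of these genes ran from 68.3 to 135.5, at percentiles 19.7 to 55.1.

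**Figure D3:**
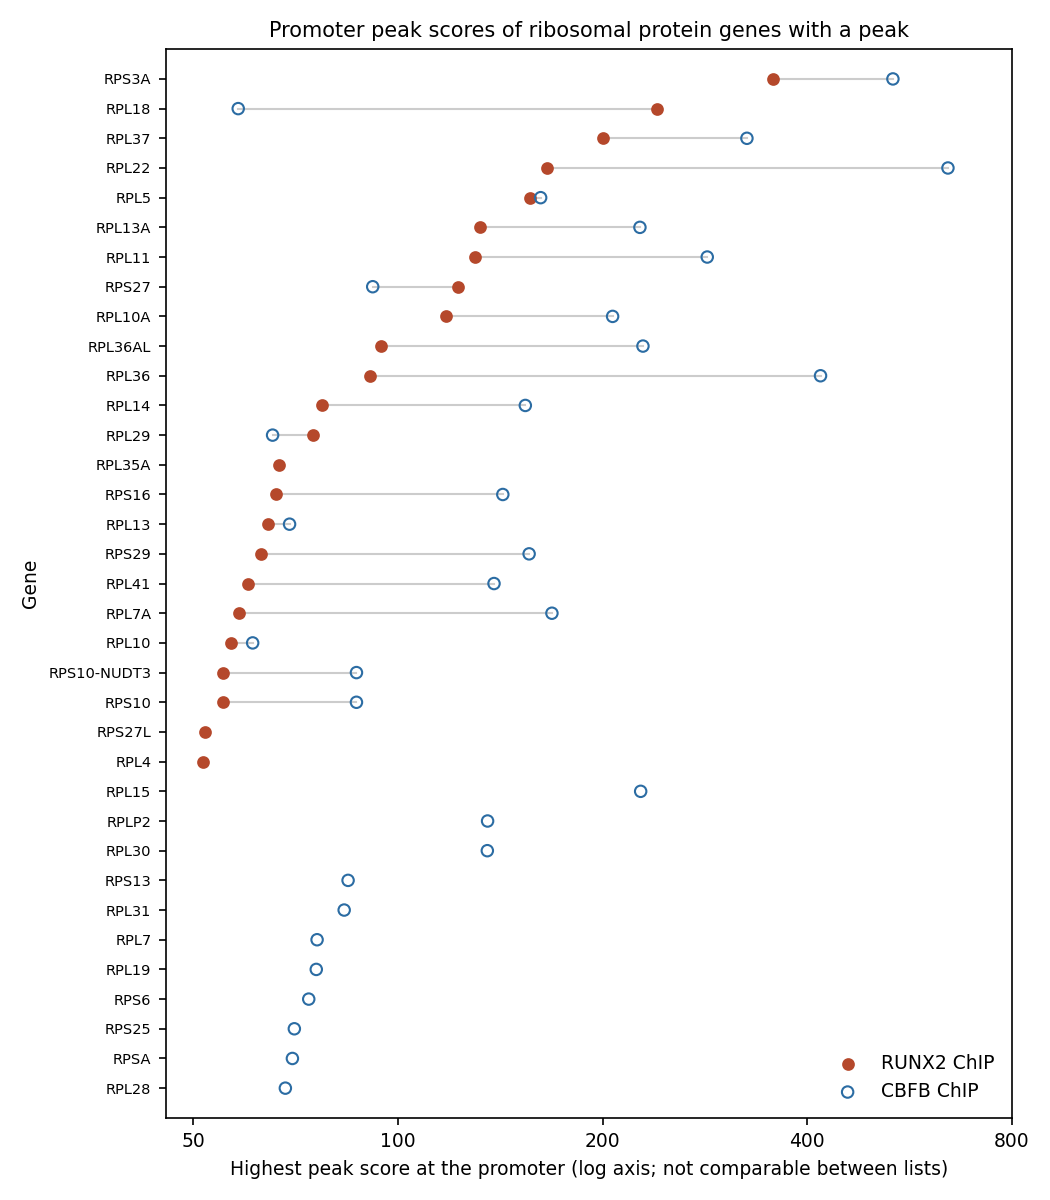
Highest promoter peak score (horizontal log axis, MACS score) of the ribosomal protein genes with a peak that are reported here, for RUNX2 (filled red) and CBFB (open blue), joined by a line where the gene had both. RPS3A leads the RUNX2 list at 356.78 and RPL22 the CBFB list at 644.5, while RPL18 is high for RUNX2 and low for CBFB.

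As a group the members were ordinary in peak score. The 29 RUNX2 peaks had scores of 51.7 to 357 with a median of 83.4, at a median percentile of 49.3, and the 2093 promoter peaks of other protein-coding genes also had a median of 83.4 and a median percentile of 49.3. The 35 CBFB peaks had scores of 58.2 to 644 with a median of 136, against 124 for 5697 other promoter peaks, and median percentiles of 55.1 and 51.0. More members had a RUNX2 peak, but their peaks were no higher. The rank of RUNX2 relative to CBFB at the same site did stand apart. In 24 overlapping pairs the RUNX2 percentile was below the CBFB percentile by a median of 2.65 points (a difference of −2.65), against a median difference of −17.8 over 1942 pairs at other genes. RUNX2 had the higher percentile in 11 of the 24 pairs, or 45.8%, against 21.0% of the other pairs.

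More of the peaks at members lay near a start site. For RUNX2, 25 of 29 midpoints, or 86.2% (68.3% to 96.1%), lay within 250 bp of the nearest TSS, against 65.6% of other promoter peaks. For CBFB, 29 of 35 did, or 82.9% (66.4% to 93.4%), against 60.1%. All RUNX2 midpoints fell between −307 and 301 bp, and CBFB midpoints fell between −783 and 404 bp. Midpoints upstream of the nearest start made up 75.9% (56.5% to 89.7%) of the RUNX2 peaks, against 56.0% elsewhere. For CBFB they made up 65.7% (47.8% to 80.9%), against 51.2%, which the interval included. With several starts per gene, some of these midpoints, as at RPL5, RPL4 and RPL36, lay inside the gene. The upstream shares were taken from the nearest start only. Since members had more annotated starts, the distances were also taken from the canonical start alone, an alternative added after seeing the data. Midpoints within 250 bp then made up 92.3% (74.9% to 99.1%) of the RUNX2 peaks against 62.5%, and 78.1% (60.0% to 90.7%) of the CBFB peaks against 51.2%. From the gene's 5′ end they made up 75% (53.3% to 90.2%) against 60.6% for RUNX2, where the interval included the background, and 73.3% (54.1% to 87.7%) against 50.4% for CBFB. From the canonical start the signed median was −36 bp against −74 bp for RUNX2, nearer the start at members. For CBFB it was −114 bp against −5 bp, farther from the start at members.

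**Figure D4:**
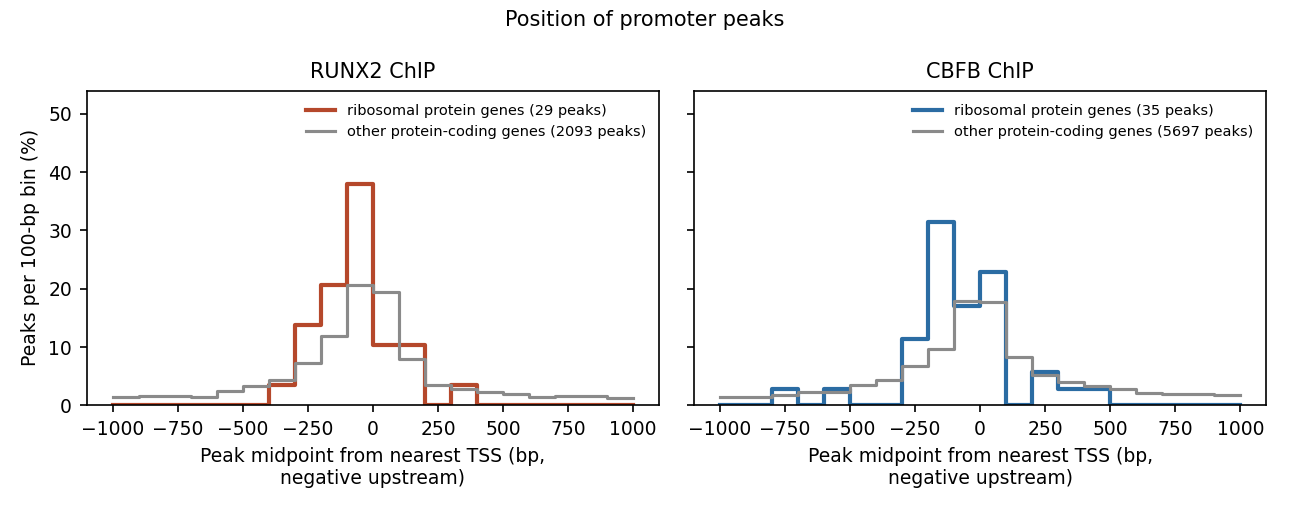
Distance of promoter peak midpoints from the nearest TSS (horizontal axis, bp, negative upstream) as the share of peaks per 100-bp bin (vertical axis, %), for ribosomal protein genes (coloured) and other protein-coding genes (grey). All 29 RUNX2 midpoints at members fell between −307 and 301 bp, while those of other genes spread over the whole window.

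Genes with related functions shared part of the pattern. The mitochondrial ribosomal proteins, encoded in the nucleus but working in the mitochondrial ribosome, had RUNX2 peaks at 23 of 78 genes, or 29.5% (19.7% to 40.9%), and CBFB peaks at 41, or 52.6%. Translation factors had RUNX2 peaks at 14 of 46 genes, or 30.4% (17.7% to 45.8%), and CBFB peaks at 24, or 52.2%. Ribosome assembly factors had RUNX2 peaks at 10 of 65 genes, or 15.4% (7.63% to 26.5%), and CBFB peaks at 30, or 46.2%. For RUNX2, the cytosolic ribosomal protein genes therefore stood beside the mitochondrial ribosomal proteins and translation factors, all with intervals that overlapped, and the assembly factors lay nearest to the background of 11.5%. For CBFB the cytosolic genes had the lowest of the 4 shares, against a background of 28.6%. The CBFB intervals were 40.9% to 64.0% for mitochondrial ribosomal proteins, 36.9% to 67.1% for translation factors and 33.7% to 59.0% for assembly factors. RUNX2 peaks among CBFB-marked genes were at 46.3% (30.7% to 62.6%) for mitochondrial ribosomal proteins, 50% (29.1% to 70.9%) for translation factors and 30% (14.7% to 49.4%) for assembly factors. Each of these intervals included the 36.9% of other CBFB-marked genes. The interval of the cytosolic genes, 49.5% to 82.6%, overlapped those of the mitochondrial ribosomal proteins and translation factors and lay just above that of the assembly factors. For the core subunits alone the share was 65.6% (46.8% to 81.4%), and its interval overlapped that of the assembly factors too.

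Smaller sets within the family gave counts only. Members that host a small nucleolar RNA (snoRNA), a guide for the chemical modification of RNA, had RUNX2 peaks at 11 of 30 genes, or 36.7% (19.9% to 56.1%), and the others at 17 of 58, or 29.3% (18.1% to 42.7%), a difference within counting error. Of 9 members listed as mutated in Diamond-Blackfan anaemia, an inherited failure of red cell production, 5 had a RUNX2 peak (RPL5, RPL11, RPL35A and RPS10 among them). That was 55.6% (21.2% to 86.3%), against 11.5% of other genes. The interval included the 31.8% of all 88 members, so the 9 genes did not stand apart from the family. A CBFB peak was at 3 of the 9 (RPL5, RPL11 and RPS10), or 33.3% (7.49% to 70.1%), near the 28.6% of other genes. The paralogs RPL7L1, RPL22L1 and RPL26L1, which the symbol rule leaves out, had a CBFB peak in 3 of 3 cases (29.2% to 100%) against 28.6% of other genes, and a RUNX2 peak in 0 of 3 (0% to 70.8%) against 11.5%, so that 3 genes could not show a lack of RUNX2 peaks.

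A promoter shared with another gene leaves the target of a peak undecided. Another protein-coding gene started within 1 kb of 28 members, and 11 of these, or 39.3% (21.5% to 59.4%), had a RUNX2 peak. This share has no matched background, since other genes with such a neighbour were not counted separately. The 60 members without such a neighbour had RUNX2 peaks at 17 genes, or 28.3% (17.5% to 41.4%), against 9.68% of other genes without one. RPS3A, RPL37, RPL5, RPL13A, RPL11, RPS27 and RPL10A were among those 17.

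Processed pseudogenes, the silent copies made by reverse transcription of ribosomal protein mRNA, gave a comparison of copied sequence without the parent promoters. RUNX2 peaks lay within 1 kb of 8 of 1514 of them, or 0.528% (0.228% to 1.04%), against 0.490% of other processed pseudogenes. CBFB peaks lay near 24, or 1.59% (1.02% to 2.35%), against 1.57%. These shares were alike, and far below the 31.8% and 38.6% of the parent genes.

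The motifs in the centres of the peaks set the members apart from other promoter peaks more clearly for ETS and NRF1 letters than for RUNX letters. Letters were searched on both strands within 100 bp of the midpoint. The RUNX core TGTGGT was in 5 of 29 RUNX2 peaks, or 17.2% (5.85% to 35.8%), against 21.5% of other RUNX2 promoter peaks. It was in 3 of 35 CBFB peaks, or 8.57% (1.8% to 23.1%), against 19.5%, and these were at RPL11, RPS29 and RPS3A. The core was thus no more common at members than at other promoter peaks. ETS letters (CCGGAAG) were in 20.7% (7.99% to 39.7%) of the RUNX2 peaks against 9.99%, and in 25.7% (12.5% to 43.3%) of the CBFB peaks against 7.58%. NRF1 letters (TGCGCA) were in 17.2% (5.85% to 35.8%) against 7.55% and in 20.0% (8.44% to 36.9%) against 5.6%. For CBFB both intervals lay above the background, and for RUNX2 both reached below it. AP-1 letters (TGANTCA) were in 0 of 29 RUNX2 peaks, where the exact upper bound is 11.9%, against 5.59%.

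The promoters themselves were examined from 250 bp before to 50 bp after the start, first at the gene's 5′ end. ETS letters were in 26.1% (17.3% to 36.6%) of the 88 members against 11.7% of other genes, and the RUNX core was in 12.5% of both. A TCT initiator, taken as TCTTT on the coding strand within 20 bp of the start, was in 18.2% (10.8% to 27.8%) against 3.83%. The 5′ end of a gene is often a rare upstream transcript, so the canonical start was added after seeing the data. There the TCT initiator was in 36.4% (26.4% to 47.3%) of members against 3.66%, and YY1 letters (AAGATGG) were in 17% (9.87% to 26.6%) against 6.37%. ETS letters were in 33.0% against 14.1%, and the RUNX core was in 14.8% (8.11% to 23.9%) against 10.6%. A GC box (GGGCGG) was in 61.4% of both, NRF1 letters were in 18.2% against 10.8%, and AP-1 letters in 2.27% against 5.42%. E-box letters (CACGTG) were in 5.68% against 8.78%, and TATA letters (TATAAA) in 9.09% against 9.62%.

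**Figure D5:**
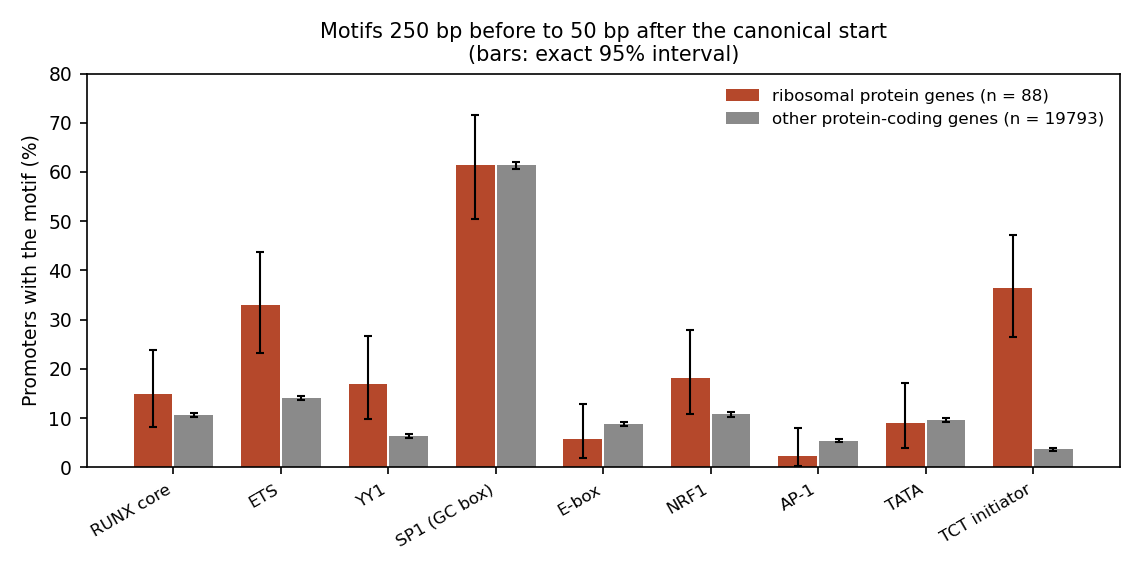
Share of promoters (vertical axis, %) holding each motif from 250 bp before to 50 bp after the canonical start, for ribosomal protein genes (red) and other protein-coding genes (grey), with exact 95% intervals. The TCT initiator (36.4% against 3.66%) and the ETS motif (33.0% against 14.1%) differ most in percentage points, YY1 letters differ by more than ETS letters in fold (2.68-fold against 2.34-fold), and the GC box is level (61.4% in both).

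Members with and without a RUNX2 peak are set side by side for these letters without a test, and the intervals overlapped in each case. At the gene's 5′ end the RUNX core was in 14.3% (4.03% to 32.7%) of members with a RUNX2 peak and 11.7% (4.82% to 22.6%) of those without, and the TCT initiator in 14.3% (4.03% to 32.7%) and 20.0% (10.8% to 32.3%). At the canonical start the TCT initiator was in 6 of 28 members with a RUNX2 peak, or 21.4% (8.30% to 41.0%), and in 26 of 60 without, or 43.3% (30.6% to 56.8%). The GC box was in 78.6% (59.0% to 91.7%) and 53.3% (40.0% to 66.3%). The RUNX core was in 7 of 28, or 25% (10.7% to 44.9%), and in 6 of 60, or 10.0% (3.76% to 20.5%). YY1 letters were in 17.9% (6.06% to 36.9%) and 16.7% (8.29% to 28.5%). The starts of RPL18, RPL37, RPL10A and RPL10 are shown, which had both a RUNX2 peak and TCTTT within 20 bp of the canonical start. Each run is 40 bases, the canonical start being the base after the first 20. RPL23, which had neither peak, is shown beside them. Capitals mark TCTTT.
RPL18, chr19:49122416-49122455, minus strand: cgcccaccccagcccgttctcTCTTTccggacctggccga
RPL37, chr5:40835305-40835344, minus strand: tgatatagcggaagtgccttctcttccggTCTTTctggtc
RPL10A, chr6:35436158-35436197, plus strand: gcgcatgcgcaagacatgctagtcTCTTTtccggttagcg
RPL10, chrX:153626698-153626737, plus strand: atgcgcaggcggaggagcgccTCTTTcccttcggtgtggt
RPL23, chr17:37009955-37009994, minus strand: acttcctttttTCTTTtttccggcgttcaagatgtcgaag
In RPL18 and RPL10 the letters began 1 base after the canonical start, and in RPL23 they ended ahead of it. In RPL37 and RPL10A they began farther downstream, so there the match was near the start rather than at it. RPL10 also showed a RUNX core, the same site as above, at the end of its run.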

How the data were processed

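ChIP-seq peaks had been called by the authors with MACS, 1 list per library. The submitters' processing notes name MACS 1.4.1, CASAVA 1.8.2 and the hg19 build, which is GRCh37. The aligner, the calling limit, the use of the input as control and the read depth were not given in the sources used here. Each deposited list holds positions and a score, read here as −10 log10 of the peak's p-value; the scores deposited by the authors ran from 50 to 3100. The depth behind a peak is unknown, so scores were ranked within lists only.

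Peaks were assigned by midpoint to TSSs of GENCODE release 44 mapped to GRCh37, with 1-based coordinates. Peaks overlapped when they shared 1 bp or more. The assignment was tested on simulated peaks. Analyses used Python 3 with pandas, scipy and pysam, and matplotlib for plots. No test was run, since each antibody had 1 library. Members and lists were chosen with earlier results of these data known. Genes were named by rule: every member with a RUNX2 promoter peak, the 10 highest CBFB scores, RPL5, RPL11 and RPL23, members with a central RUNX core, and those outside the core. Some of these genes are not reported here by name, though they are in the counts. The genes with a CBFB peak alone were also named, after their values were seen. Alternatives covered the promoter reach, the choice of starts, the score, shared promoters, GC content and overlap.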

Additional observations from a re-analysis of the deposited data

How the results depend on the processing

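Of 79 recomputed values of the main results, 64 moved by less than their counting error. RUNX2 shares stayed above the background in 12 of 12 alternatives, from 1.90-fold with starts within 5 kb to 3.56-fold with canonical starts. CBFB shares did so in 12 of 12, from 1.11-fold to 1.61-fold. The CBFB interval included the background in several of these, among them reaches of 2 kb and 5 kb, unshared promoters and scores of at least 100. It lay above the background in others, such as a reach of 500 bp and the core subunits. Reaches of 500 bp, 2 kb and 5 kb gave the same 28 RUNX2-marked genes. With the gene's 5′ end alone, RPL10, RPL36 and RPL4 were lost. The RUNX2 share fell to 12.5% with scores of at least 100 and to 14.8% with peaks at or above the median score, the latter added after seeing the data. The CBFB share fell to 21.6% with scores of at least 100 and to 12.5% with the top CBFB peaks. RUNX2 peaks among CBFB-marked members were at 90.9% with the top CBFB peaks, and at 36.4%, 87.5% and 100% in score groups 2, 4 and 5. Other CBFB-marked genes had 16.0%, 48.0% and 77.4% in those groups. Since the background rose with the CBFB score, the 90.9% alone does not show an excess. The overlap of RUNX2 with CBFB peaks turned from below to above the background when midpoints had to lie within 200 bp, 67.9% against 63.8%. The median RUNX2 distance was 17 bp from gene 5′ ends. Over whole peaks the RUNX core was in 44.8% of member RUNX2 peaks, against 53.9% of other RUNX2 promoter peaks. For CBFB it was in 54.3%, against 59.3%. At canonical starts the YY1 share was 17%, the TCT share 36.4%, and the GC box share 61.4%, level with other genes. The settings with a score limit or the top CBFB peaks kept fewer peaks, and the cause of these moves was not tested. No paired analysis was possible because no group had a second library.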

Other observations

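Peaks farther out were also counted around the members without a promoter peak. Of the 60 members without a RUNX2 promoter peak, 0 had a RUNX2 midpoint from 1 to 5 kb of a start (0% to 5.96%), against 5.98% of other such genes, a value at the edge of the interval, and 9 had one from 5 to 25 kb, or 15% (7.10% to 26.6%), against 16.3%. The nearest RUNX2 midpoint was at a median of 118508 bp, against 95132 bp. Of the 54 members without a CBFB promoter peak, 7 had a CBFB midpoint from 1 to 5 kb, or 13.0% (5.37% to 24.9%), against 12.9%, and 19 had one from 5 to 25 kb, or 35.2% (22.7% to 49.4%), against 26.7%. The median was 25553 bp, against 39383 bp.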
